A study of Homo sapiens with 12 samples.

Results

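The genes described here are 40 human genes of the extracellular matrix and of the mesenchymal cell state, whose RNA was sequenced in SBC5, a long-established line of human small cell lung cancer cells. They were chosen by name: collagens, other matrix proteins, the enzymes and inhibitors that process them, integrins, cadherins and transcription factors of the mesenchymal state. The list was drawn up with earlier results of these data known, so shares of members beside those of all genes are descriptive only. Each name matched a single row, so all 40 were found among 60605 genes. Wild-type SBC5 cells received olaparib at 1 µM, a drug that blocks the DNA repair enzymes PARP1 and PARP2, or its solvent DMSO, and 2 hours later either 4 Gy of gamma rays or none. This gave 4 groups of 3 libraries each, the combination (olaparib and 4 Gy), radiation (DMSO and 4 Gy), olaparib (olaparib and 0 Gy) and vehicle (DMSO and 0 Gy), all collected after 3 days. SBC5 is a single line in culture, without the stromal cells of a tumour. The labels do not say whether the libraries of a group came from separate cultures, so the p-values measure only the spread between libraries, which may be technical.

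Extracellular matrix is the protein network around cells. Fibrillar collagens give it strength, type IV collagen and laminins form the sheet called basement membrane, and integrins on the cell surface bind these proteins and link them to the cell's skeleton. Cells with epithelial character carry E-cadherin and EpCAM, while cells with mesenchymal character carry N-cadherin and vimentin and the transcription factors ZEB1, ZEB2, SNAI2 and TWIST1, which repress epithelial genes. Small cell lung cancer lines differ in where they stand between these states.

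Library totals, in units of 1e+06 counts, were 19.4 to 20.6 in the combination, 26.9 and 30.01 in radiation libraries 2 and 1, 38.8 in olaparib library 1 and 27.01 to 34.1 in vehicle. Radiation library 3 (14.3) and olaparib libraries 2 and 3 (17.7 and 16.2) stood apart. Summed counts of 404 olfactory receptor genes, which a lung cancer line should barely express, were 920 counts per 1e+06 (CPM) in radiation library 3 and 1897 and 2098 CPM in olaparib libraries 2 and 3, against 355 to 501 CPM in the other 9. These 3 libraries are shown apart, and the tests used the other 9, so radiation had 2 libraries and olaparib 1. Within the 9, the olfactory sum was 461 to 501 CPM in the combination, 357 and 487 CPM in radiation libraries 1 and 2 and 355 to 433 CPM in vehicle. Of the small cell lung cancer markers, YAP1 stood at 90.5 ± 5.75 scaled CPM in the combination and 120 ± 2.92 in vehicle (SD, n = 3 each), while INSM1 stayed at or under 0.285 in the 9 libraries, NEUROD1 at or under 3.25 and POU2F3 at or under 1.21. Scaled CPM are CPM after the library scaling used in the tests (trimmed mean of M values).

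Over the 9 libraries the 40 genes spanned a wide range of levels, and 18 of them averaged at least 10 scaled CPM. To compare genes with each other, levels were divided by the length of the longest coding transcript in kilobases. Per kilobase, ITGB1 (integrin beta 1), CTSK (the collagen-degrading protease cathepsin K) and VIM (vimentin) led the vehicle libraries at 219 ± 11.99, 215 ± 15.3 and 206 ± 20.7 scaled CPM per kilobase (SD, n = 3), which did not differ beyond their spread. COL5A2, a chain of the fibrillar type V collagen, followed at 113 ± 9.74, then the laminin chains LAMC1 at 45.0 ± 2.02 and LAMB1 at 30.8 ± 1.15, and ZEB1 at 19.2 ± 1.07. TWIST1, CDH2 (N-cadherin) and COL6A1 lay close together at 10.3 ± 1.12, 9.39 ± 0.391 and 8.499 ± 0.760. The order depends on the transcript length used: with the median length, ITGB1 stood at 1458 in vehicle, VIM at 335 and CTSK at 293, and CDH2 at 55.0 stood above TWIST1 at 10.3.

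**Figure D1:**
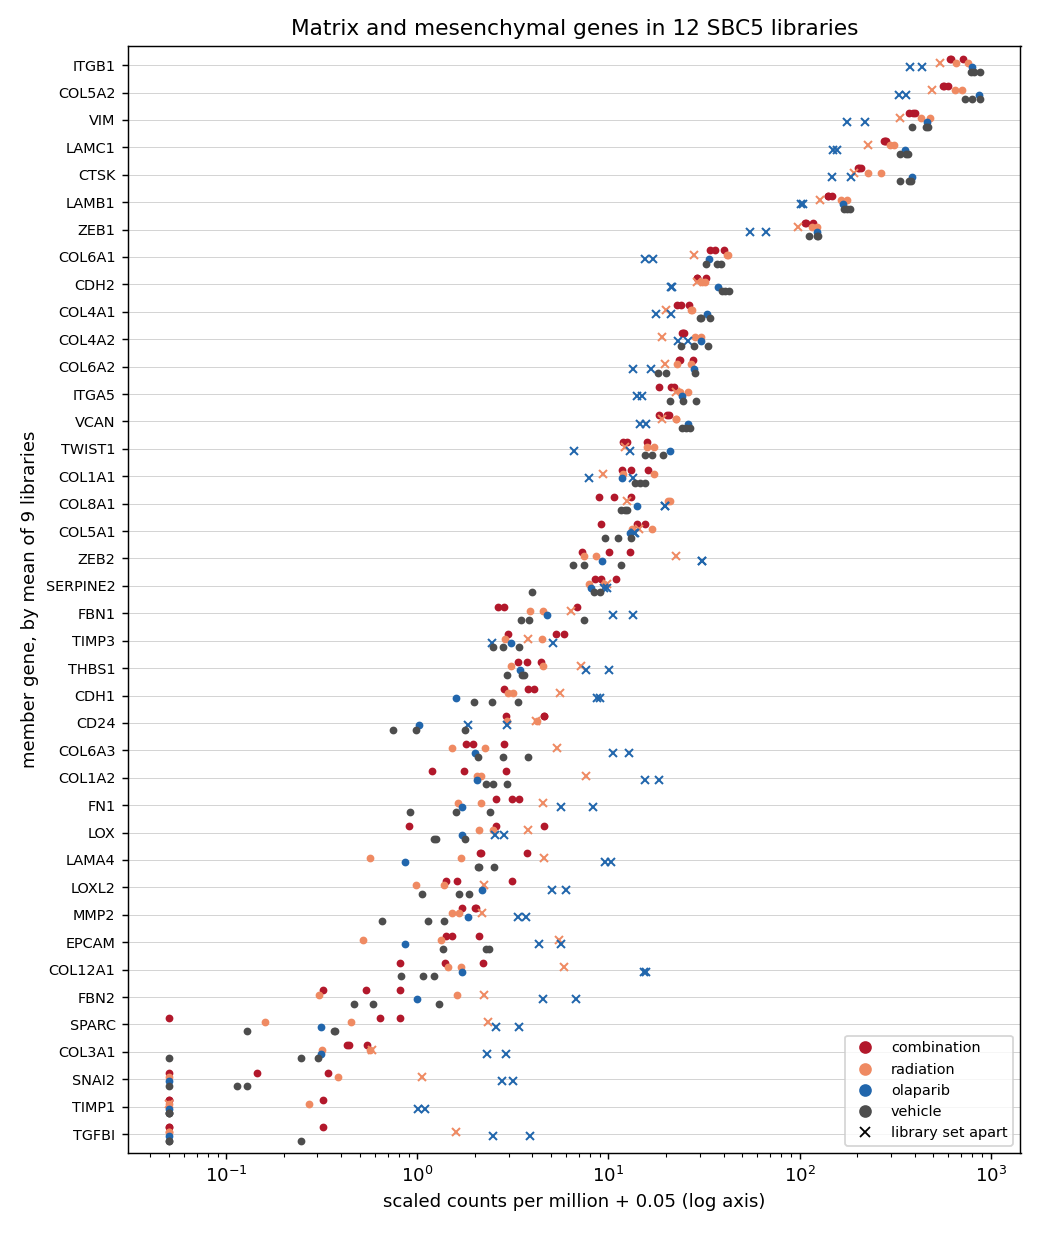
Level of each of the 40 genes (rows, ordered by mean of the 9 libraries) in scaled CPM plus 0.05 on a log axis, 1 mark per library, coloured by group; crosses are the 3 libraries set apart. ITGB1 and COL5A2 lie highest, TGFBI, TIMP1 and SNAI2 lie near 0 in the 9 libraries, and the crosses lie to the right of the dots for most low genes and to the left for most high ones.

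**Figure D2:**
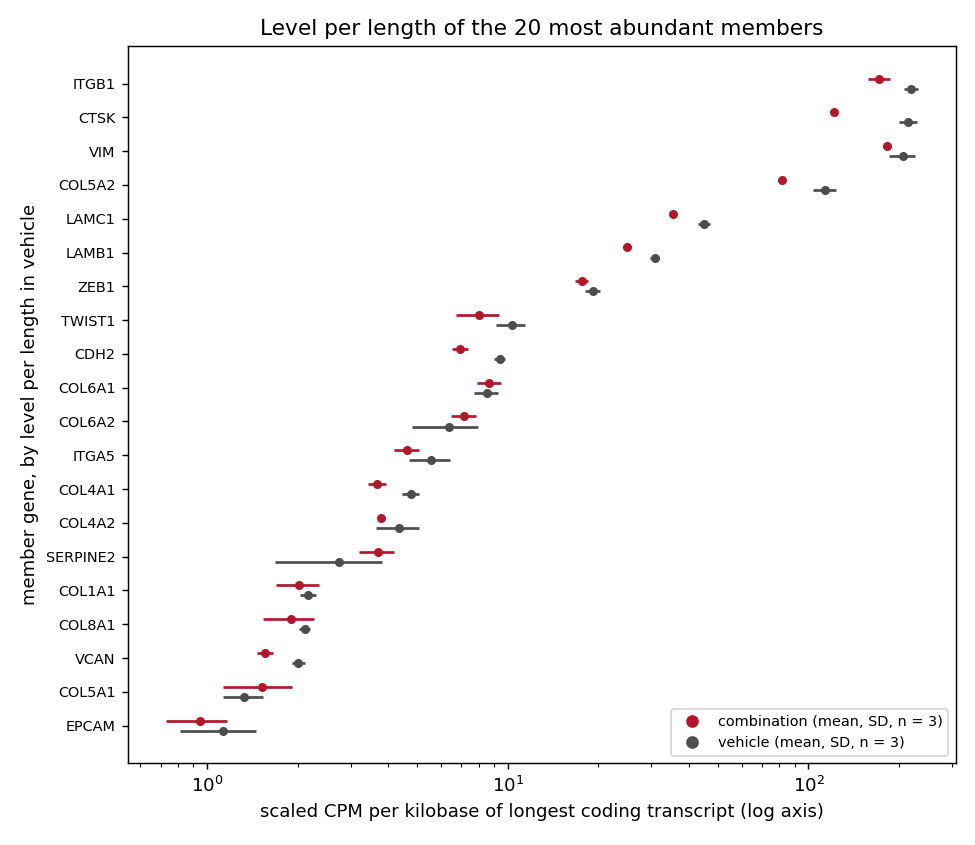
Mean level per kilobase of longest coding transcript (log axis) of the 20 genes highest in vehicle, for combination and vehicle libraries; bars are the SD over 3 libraries. ITGB1, CTSK and VIM lead in vehicle at 219, 215 and 206, and CTSK stands at 122 in the combination.

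Setting the combination against vehicle addresses the series' main question, how olaparib joined to radiation alters expression. Of the 37 genes with enough counts to test, 8 passed an adjusted p of 0.05 and are termed called (edgeR's quasi-likelihood test, Benjamini-Hochberg adjustment over 30967 genes). The protease CTSK, the collagens COL5A2 and COL4A1, the laminin chains LAMB1 and LAMC1, the receptor ITGB1 and the cadherin CDH2 were lower in the combination, and the surface protein CD24 was higher. In bulk RNA, fewer cells with a transcript and less of it per cell cannot be told apart. Over all genes tested, 4.8% passed (1.53% higher and 3.26% lower). Among the 8350 genes averaging at least 10 scaled CPM, 15.5% passed, and 11.2% passed as lower. Of the 18 members at that level 7 passed, all lower. The median log2 change was -0.12 over the 37 members and 0.02 over all genes. With library totals alone as scaling, the medians were 0.08 and 0.22. There, 3 of the 37 members passed, with CTSK and COL5A2 lower and CD24 higher, beside 2594 of 30967 genes, a similar share. The same 3 passed in a fit of all 12 libraries with the olfactory receptor sum as a covariate, beside 829 of 31858 genes. Without that covariate the fit of all 12 libraries called none of the members, and 1 of 31858 genes.

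The members, chosen with earlier results of these data known, split by level. Of the 18 averaging at least 10 scaled CPM, 15 had a negative log2 change in the combination, which is 83.3%, beside 56.8% of all genes at that level. Of the 19 tested members under 10 scaled CPM, 5 were negative, which is 26.3%, beside 45.2% of all genes there. With library totals alone as scaling, 61.1% of the higher members were negative, beside 25.6% of all genes at that level. The median standard error was 0.11 for the higher members and 0.41 for the lower ones, so the changes of the lower ones are known far less closely. In all 3 libraries set apart, 10 of the 18 abundant members were lower than in any of the other 9, and 15 of the 22 scarcer ones, untested ones included, were higher. The matching share over all genes was not counted, so this cannot be read as particular to the members. The combination libraries had smaller totals and a higher olfactory sum than vehicle. All 7 members called lower in the combination were also lower in each of the 3 libraries set apart than in any of the 9. The part of depth and background in the combination's pattern was not tested beyond the covariate fit above.

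**Figure D3:**
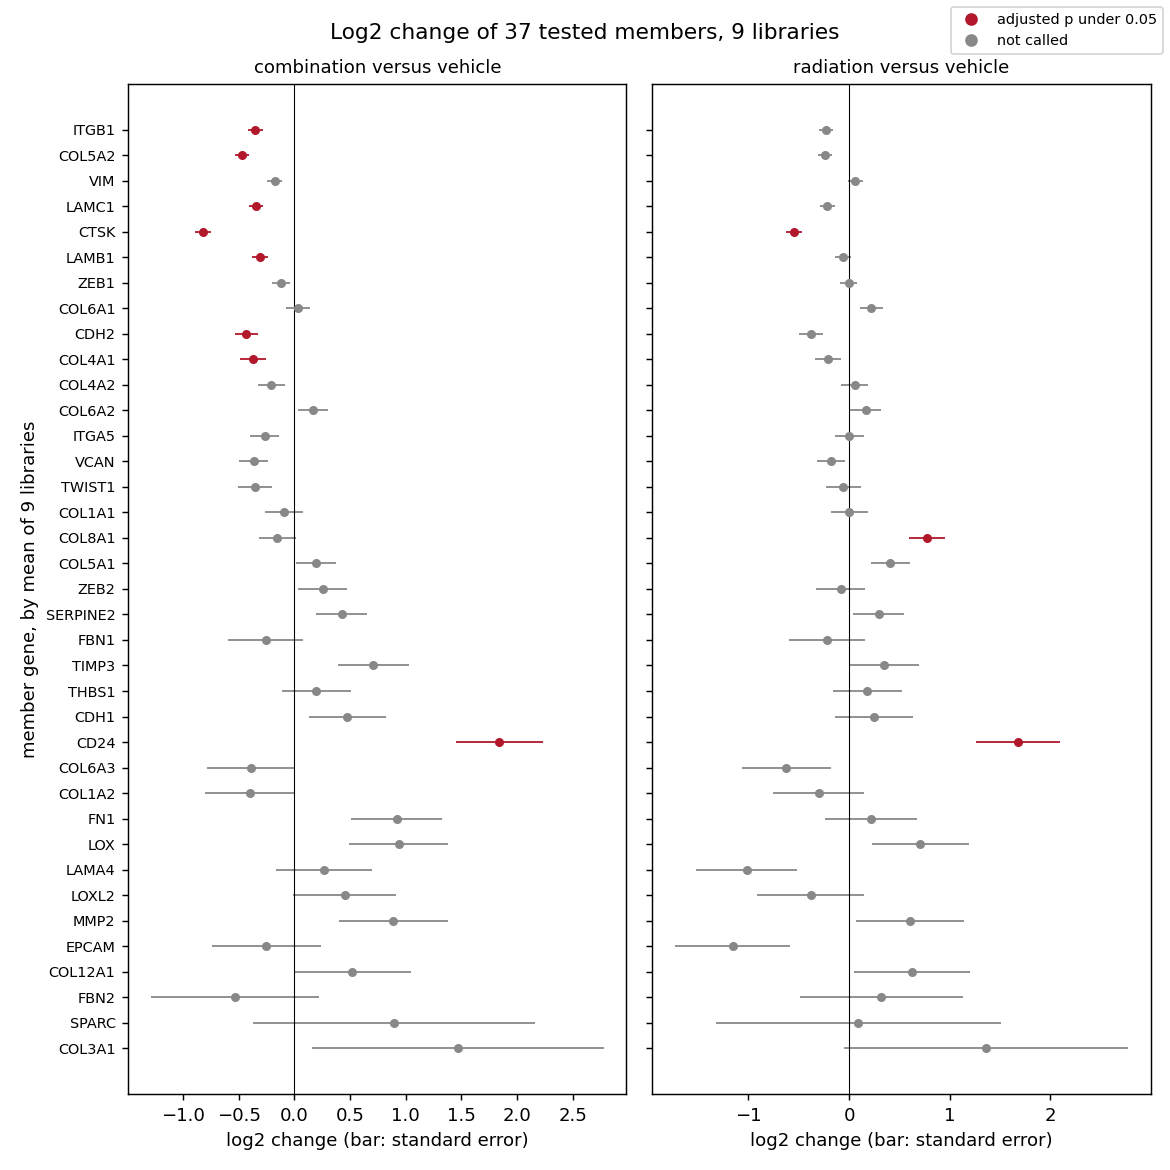
Log2 change of the 37 tested members (rows, ordered by mean level) in the combination against vehicle (left) and radiation against vehicle (right), with standard errors as bars; red marks passed an adjusted p of 0.05. In the combination 7 of the abundant genes were lower and CD24 was higher; with radiation alone CTSK was lower and COL8A1 and CD24 were higher.

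Cathepsin K, a lysosomal cysteine protease that can cleave native type I collagen, had the smallest adjusted p of the members. CTSK (ENSG00000143387.14) stood at 211, 204 and 203 scaled CPM in the combination libraries, 268 and 228 in radiation libraries 1 and 2, 388 in olaparib library 1 and 334, 372 and 384 in the vehicle libraries. Of these 9, every irradiated library was below every library without irradiation, and the 3 combination libraries were below both radiation libraries. CTSK averaged 206 ± 4.21 in the combination and 363 ± 25.9 in vehicle (SD, n = 3 each), a fold of 0.567 (log2 change -0.82, SE 0.0700, adjusted p = 5.28e-15 by edgeR). Radiation alone gave a fold of 0.683 against vehicle (log2 change -0.55, SE 0.0788, adjusted p = 1.61e-06). Between the combination and radiation the log2 change was -0.27 (SE 0.0775) and did not pass (adjusted p = 0.0857).

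The other enzymes and inhibitors among the members were scarce. MMP2, a gelatinase, stood at 1.95, 1.97 and 1.66 scaled CPM in the combination and 1.33, 0.601 and 1.09 in vehicle. The libraries of the groups did not overlap, but the log2 change of 0.89 (SE 0.489) did not pass (adjusted p = 0.426). TIMP3, an inhibitor of metalloproteases, had a log2 change of 0.71 (SE 0.317, adjusted p = 0.253), and SERPINE2, an inhibitor of serine proteases, one of 0.43 (SE 0.228, adjusted p = 0.409). SERPINE2 stood at 10.9, 9.14 and 8.45 scaled CPM in the combination, 7.86 and 9.46 in radiation, 8.04 in olaparib library 1 and 8.93, 3.92 and 8.35 in vehicle, with vehicle library 2 below the rest. TIMP1, another metalloprotease inhibitor, was too scarce to test. It had 0, 6 and 0 counts in the combination, 0 and 6 in radiation, 0 in olaparib library 1 and 0 in each vehicle library, where a count of 0 allows up to 3 counts, or 0.0773 to 0.154 CPM over the 9 libraries, for counting error only. The collagen cross-linking oxidases LOX and LOXL2 averaged 2.63 ± 1.84 and 2.01 ± 0.945 scaled CPM in the combination and 1.37 ± 0.311 and 1.47 ± 0.410 in vehicle (SD, n = 3 each). Neither passed: their log2 changes were 0.94 (SE 0.443, adjusted p = 0.301) and 0.45 (SE 0.464, adjusted p = 0.794).

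Among the fibrillar collagens, COL5A2 was lower in the combination and the others did not pass. COL5A2 (ENSG00000204262.14) stood at 572, 564 and 597 scaled CPM in the combination, 712 and 647 in radiation libraries 1 and 2, 868 in olaparib library 1 and 737, 795 and 875 in vehicle. The 3 combination libraries were the lowest of the 9, and the radiation libraries lay between them and vehicle. COL5A2 averaged 578 ± 17.5 in the combination and 802 ± 69.0 in vehicle (SD, n = 3 each), a fold of 0.720 (log2 change -0.47, SE 0.0628, adjusted p = 3.68e-08). This call held in 17 of 19 alternatives and was lost with limma-voom, another test, and with all 12 libraries. With radiation alone the log2 change was -0.24 (SE 0.0704, adjusted p = 0.0746 by edgeR's test and 0.0295 by DESeq2), and between the combination and radiation it was -0.23 (SE 0.0697, adjusted p = 0.103 by edgeR's test and 0.0155 by DESeq2). COL5A1 encodes the partner chain of type V collagen and stood far lower, at 14.1, 15.5 and 9.12 scaled CPM in the combination and 9.59, 11.2 and 13.0 in vehicle, with overlapping groups (log2 change 0.19, SE 0.179, adjusted p = 0.753). Per kilobase, COL5A2 stood above COL5A1 by a mean ratio of 56.8 in the combination (range 43.5 to 78.4), 55.3 in radiation, 80.9 in olaparib library 1 and 85.7 in vehicle (range 80.4 to 91.9).

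COL1A1, the main chain of type I collagen, stood at 11.7, 16.1 and 13.1 scaled CPM in the combination, 17.3 and 11.9 in radiation, 11.7 in olaparib library 1 and 14.5, 13.7 and 15.5 in vehicle. The combination, radiation and vehicle libraries overlapped, and no comparison passed (combination against vehicle, log2 change -0.09, SE 0.167, adjusted p = 0.912). Its partner COL1A2 averaged 1.90 ± 0.881 in the combination and 2.53 ± 0.336 in vehicle (SD, n = 3 each). Per kilobase, COL1A1 stood above COL1A2 by a mean ratio of 6.43 in the combination and 4.68 in vehicle, or 10.9 and 7.95 with median transcript lengths. COL3A1, a fibrillar collagen typical of fibroblasts, had 8, 11 and 8 counts in the combination, 8 and 14 in radiation, 10 in olaparib library 1 and 5, 8 and 0 in vehicle. COL12A1, which binds to collagen fibrils, stood at 2.14, 1.34 and 0.760 scaled CPM in the combination, 1.40 and 1.65 in radiation, 1.65 in olaparib library 1 and 1.02, 1.17 and 0.768 in vehicle, so that combination and vehicle overlapped (log2 change 0.52, SE 0.525, adjusted p = 0.79).

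COL8A1 (ENSG00000144810.16), a short-chain collagen that forms networks, moved with radiation alone and not with the combination. It stood at 13.1, 8.87 and 10.6 scaled CPM in the combination, 20.5 and 20.9 in radiation libraries 1 and 2, 14.1 in olaparib library 1 and 11.5, 12.5 and 12.2 in vehicle. Both radiation libraries were above the other 7, and the combination and vehicle libraries overlapped. It averaged 20.7 ± 0.285 in radiation (SD, n = 2) and 12.1 ± 0.491 in vehicle (SD, n = 3), a fold of 1.71 (log2 change 0.78, SE 0.179, adjusted p = 0.00824). The combination, at 10.9 ± 2.12 (SD, n = 3), gave a fold of 0.525 against radiation (log2 change -0.93, SE 0.181, adjusted p = 0.00172) and a log2 change of -0.15 against vehicle (SE 0.166, adjusted p = 0.812). The interaction term, which asks whether the effect of both treatments departs from the sum of each alone on the log2 scale, was -1.16 (SE 0.287) and did not pass (adjusted p = 0.0609). It rests on the single olaparib library and passed without combination library 1 (adjusted p = 0.0277), without a count filter (adjusted p = 0.0255) and with limma-voom (adjusted p = 0.0243). Radiation library 3, set apart, stood at 12.5, inside the range of the combination and vehicle libraries, and with all 12 libraries neither COL8A1 comparison passed. Without radiation library 1, or without radiation library 2, the radiation comparison did not pass, and without radiation library 1 the comparison of combination with radiation did not pass.

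The type VI collagen chains COL6A1, COL6A2 and COL6A3, which form beaded filaments, showed no call in any comparison. COL6A1 averaged 36.8 ± 3.26 scaled CPM in the combination and 36.0 ± 3.22 in vehicle (SD, n = 3 each; log2 change 0.03, SE 0.105, adjusted p = 0.963). COL6A2 averaged 24.8 ± 2.38 in the combination and 22.1 ± 5.40 in vehicle (adjusted p = 0.708). COL6A1 was close to COL6A2 per kilobase, by a mean ratio of 1.22 in the combination and 1.38 in vehicle. COL6A3 was far scarcer, so that COL6A1 stood above it per kilobase by mean ratios of 45.5 in the combination and 34.7 in vehicle.

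Of the basement membrane genes among the members, LAMB1, LAMC1 and COL4A1 were lower in the combination. LAMC1 (ENSG00000135862.6) encodes the gamma chain of most laminin trimers and stood at 277, 279 and 282 scaled CPM in the combination, 313 and 299 in radiation, 356 in olaparib library 1 and 337, 361 and 367 in vehicle. The combination, radiation and vehicle libraries did not overlap, with radiation in between. LAMC1 averaged 279 ± 2.33 in the combination and 355 ± 15.9 in vehicle (SD, n = 3 each), a fold of 0.787 (log2 change -0.35, SE 0.0662, adjusted p = 0.000153).

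LAMB1 (ENSG00000091136.15), a laminin beta chain, stood at 148, 141 and 141 scaled CPM in the combination, 176 and 164 in radiation, 169 in olaparib library 1 and 171, 185 and 177 in vehicle. The combination libraries were the lowest, and radiation overlapped vehicle. It averaged 143 ± 4.09 in the combination and 178 ± 6.65 in vehicle (SD, n = 3 each), a fold of 0.806 (log2 change -0.31, SE 0.0725, adjusted p = 0.00268), beside a log2 change of -0.06 with radiation alone (SE 0.0807, adjusted p = 0.901). Per kilobase the ratio of LAMC1 to LAMB1 was 1.43 in the combination (range 1.37 to 1.46) and 1.46 in vehicle (range 1.43 to 1.52). LAMA4, the only laminin alpha chain among the members, averaged 2.63 ± 0.925 in the combination, 1.07 ± 0.792 in radiation (n = 2) and 2.19 ± 0.241 in vehicle (SD, n = 3 for the others), stood at 0.814 in olaparib library 1, and passed in no comparison.

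COL4A1 and COL4A2 encode the chains of 1 type IV collagen trimer and lie head to head on chromosome 13, so that a short stretch between their starts serves both. COL4A1 (ENSG00000187498.16) stood at 22.9, 23.9 and 26.2 scaled CPM in the combination, 27.3 and 27.0 in radiation, 32.8 in olaparib library 1 and 33.8, 30.2 and 30.4 in vehicle. The combination and vehicle libraries did not overlap. It averaged 24.3 ± 1.71 in the combination and 31.5 ± 2.03 in vehicle (SD, n = 3 each), a fold of 0.773 (log2 change -0.37, SE 0.116), which passed narrowly (adjusted p = 0.045). The call held in 5 of 19 alternatives and was lost without combination library 1 or 2, without any 1 vehicle library and without the olaparib library. COL4A2 stood at 24.1, 24.8 and 24.6 scaled CPM in the combination, 30.4 and 28.3 in radiation, 30.5 in olaparib library 1 and 27.9, 23.9 and 33.0 in vehicle. Vehicle library 2 lay below the combination libraries, and the log2 change of -0.21 (SE 0.121) did not pass (adjusted p = 0.468). The ratio of COL4A1 to COL4A2 per kilobase was 0.974 in the combination (range 0.932 to 1.04) and 1.11 in vehicle (range 0.905 to 1.24), so the groups overlapped.

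The stretch between the starts of COL4A1 and COL4A2 is shown with the 120 bases before the starts of LAMB1, LAMC1, ITGB1 and CDH2. Beside COL4A1, these are the basement membrane and adhesion genes among the members in the RefSeq promoter table that were called lower in the combination. COL4A2 was not called there (log2 change -0.21, SE 0.121), and the COL4A1 call held in 5 of 19 alternatives. Whether these genes are regulated together was not tested. The sequences are from RefSeq (GRCh38.p14), 5′ to 3′ on the strand named. Capitals mark CCAAT (the NF-Y box) and GGGCGG (a GC box), or their reverse complements ATTGG and CCGCCC, searched on both strands with overlaps counted. The positions are chr13:110307158-110307283 (plus strand, COL4A2's direction) for the shared stretch, chr7:108003162-108003281 (minus) for LAMB1, chr1:183023300-183023419 (plus) for LAMC1, chr10:32958231-32958350 (minus) for ITGB1 and chr18:28177131-28177250 (minus) for CDH2.
COL4A1-COL4A2: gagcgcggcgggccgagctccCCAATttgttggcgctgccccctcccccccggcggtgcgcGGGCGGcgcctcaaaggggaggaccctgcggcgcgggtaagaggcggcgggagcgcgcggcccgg
LAMB1: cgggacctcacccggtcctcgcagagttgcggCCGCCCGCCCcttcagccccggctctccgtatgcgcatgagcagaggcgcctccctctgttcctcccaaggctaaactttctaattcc
LAMC1: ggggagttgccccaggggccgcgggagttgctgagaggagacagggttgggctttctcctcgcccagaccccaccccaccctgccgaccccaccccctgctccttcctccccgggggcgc
ITGB1: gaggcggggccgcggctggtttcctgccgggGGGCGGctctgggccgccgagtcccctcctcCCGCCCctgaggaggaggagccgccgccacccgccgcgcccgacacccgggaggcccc
CDH2: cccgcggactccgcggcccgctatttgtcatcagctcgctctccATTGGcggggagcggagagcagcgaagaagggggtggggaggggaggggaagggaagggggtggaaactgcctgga
The shared type IV collagen stretch of 126 bases holds 1 CCAAT and 1 GGGCGG, the LAMB1 window 2 overlapping GC boxes, the ITGB1 window 2 GC boxes, the CDH2 window 1 CCAAT and the LAMC1 window neither. Of 27305 promoters in the table, 21.2% hold CCAAT and 34.0% hold GGGCGG in the 120 bases before the start, and 21.9% and 34.6% in 126 bases. In the 250 bases before the start, CCAAT was found in 9 of the 27 members that the table lists, against 33.0% of all promoters, and GGGCGG in 22 of 27, against 42.3%. Both counts include COL4A1 and COL4A2 separately, although they share the stretch above. GGAATG, the core bound by TEAD factors, was found in 6 of 27 against 11.9%, and CACCTG, the E-box bound by ZEB1 and SNAI2, in 1 of 27 (ZEB1 itself) against 17.5%. The table gives 1 start for each gene, and a match describes these letters only. The 27 include uncalled members and ones too scarce to test, and the share among promoters of expressed genes was not counted. CTSK, COL5A2 and COL8A1 were among the 13 members not matched.

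ITGB1 (ENSG00000150093.20) encodes the beta subunit shared by most receptors for collagen, laminin and fibronectin. It stood at 713, 621 and 616 scaled CPM in the combination, 759 and 656 in radiation, 803 in olaparib library 1 and 790, 879 and 819 in vehicle. The combination and radiation libraries were all below the vehicle libraries, and combination library 1 lay among the radiation libraries. ITGB1 averaged 650 ± 54.7 in the combination and 829 ± 45.4 in vehicle (SD, n = 3 each), a fold of 0.784 (log2 change -0.35, SE 0.0644, adjusted p = 9.86e-05). This call held in 15 of 19 alternatives. It was lost with limma-voom, with library totals alone and with all 12 libraries, with or without the olfactory receptor covariate. With radiation alone the log2 change was -0.23 (SE 0.0722, adjusted p = 0.12). ITGA5, which pairs with ITGB1 as the fibronectin receptor, averaged 20.5 ± 1.95 in the combination and 24.7 ± 3.86 in vehicle, and its log2 change of -0.27 (SE 0.132) did not pass (adjusted p = 0.334).

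**Figure D4:**
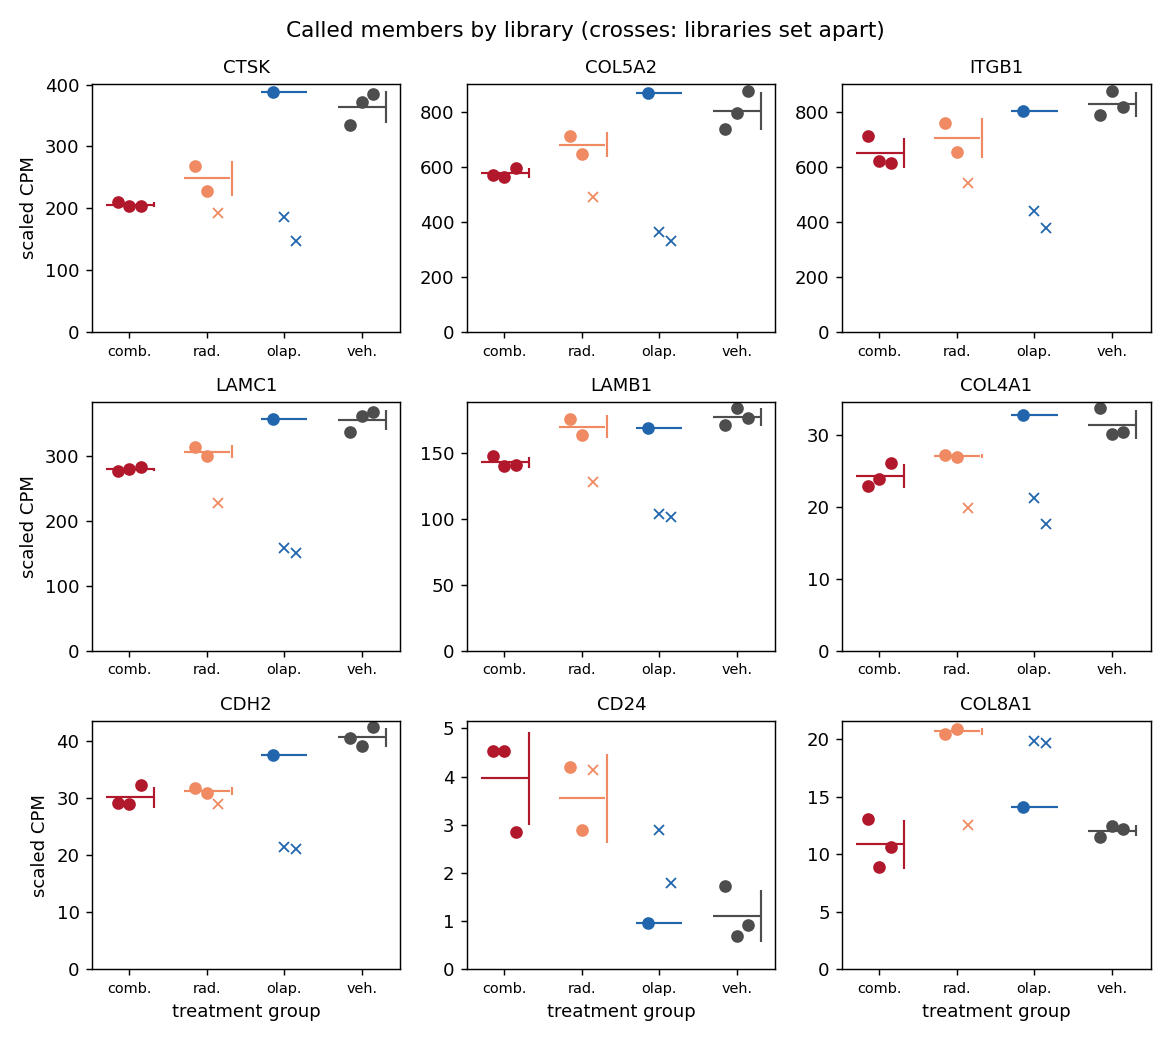
Scaled CPM of the 9 called members in every library, by group (combination, radiation, olaparib, vehicle); lines are group means, vertical bars the SD, and crosses the libraries set apart, left out of both. Among the 9 libraries in the tests, CTSK is lowest in the combination, next in radiation and highest without irradiation, while COL8A1 is highest in radiation libraries 1 and 2.

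FN1, VCAN, THBS1, SPARC, FBN1 and FBN2, matrix proteins other than collagens and laminins, did not pass in edgeR. FN1 (fibronectin) stood at 3.36, 3.09 and 2.52 scaled CPM in the combination, 2.10 and 1.58 in radiation, 1.65 in olaparib library 1 and 2.35, 1.55 and 0.864 in vehicle. Its combination and vehicle libraries did not overlap, but the log2 change of 0.92 (SE 0.412) did not pass (adjusted p = 0.257). VCAN (versican, a large proteoglycan) stood at 18.4, 20.1 and 20.7 in the combination and 25.5, 26.6 and 24.1 in vehicle, without overlap. Its log2 change of -0.37 (SE 0.128) did not pass in edgeR (adjusted p = 0.0919) and did in DESeq2 (adjusted p = 0.0457). THBS1 (thrombospondin 1, which can activate latent TGF-beta) stood at 3.31, 4.39 and 3.70 in the combination, 3.03 and 4.51 in radiation, 3.39 in olaparib library 1 and 3.49, 3.58 and 2.91 in vehicle, with overlap between the combination and vehicle (log2 change 0.19, SE 0.311, adjusted p = 0.895).

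SPARC, a collagen-binding protein made by fibroblasts, was near 0, with 12, 17 and 0 counts in the combination, 12 and 3 in radiation, 10 in olaparib library 1 and 2, 10 and 10 in vehicle. The fibrillins FBN1 and FBN2 form microfibrils. FBN2 stood at 0.487, 0.269 and 0.760 scaled CPM in the combination, 1.57 and 0.257 in radiation, 0.946 in olaparib library 1 and 1.25, 0.538 and 0.416 in vehicle, with every group overlapping (combination against vehicle, log2 change -0.53, SE 0.757, adjusted p = 0.875). FBN1 averaged 4.05 ± 2.38 in the combination and 4.86 ± 2.17 in vehicle (SD, n = 3 each; adjusted p = 0.862). TGFBI, a matrix protein induced by TGF-beta, was too scarce to test: 1 combination library had 6 counts, 1 vehicle library had 5, and the other 7 of the 9 had 0.

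Among the genes of the mesenchymal and epithelial states, CDH2 was lower and CD24 higher in the combination, and the others did not pass. CDH2 (ENSG00000170558.10) stood at 29.2, 28.99 and 32.3 scaled CPM in the combination, 31.8 and 30.8 in radiation, 37.6 in olaparib library 1 and 40.5, 39.1 and 42.5 in vehicle. Of these 9, all irradiated libraries were below all others, and the combination and radiation overlapped. CDH2 averaged 30.1 ± 1.86 in the combination and 40.7 ± 1.69 in vehicle (SD, n = 3 each), a fold of 0.741 (log2 change -0.43, SE 0.106, adjusted p = 0.00484). With radiation alone the log2 change was -0.38 (SE 0.118, adjusted p = 0.113 by edgeR and 0.041 by DESeq2).

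VIM stood at 400, 393 and 376 scaled CPM in the combination, 484 and 435 in radiation, 465 in olaparib library 1 and 389, 459 and 471 in vehicle. Vehicle library 1 lay within the combination range, and the log2 change of -0.17 (SE 0.0673) did not pass (adjusted p = 0.145). It passed without that library (log2 change -0.26, adjusted p = 0.0229). ZEB1 stood at 117, 108 and 106 in the combination, 124 and 116 in radiation, 124 in olaparib library 1 and 124, 124 and 112 in vehicle, with overlap (log2 change -0.12, SE 0.0772, adjusted p = 0.54). ZEB2 averaged 10.1 ± 2.85 in the combination and 8.45 ± 2.69 in vehicle, and TWIST1 13.4 ± 2.17 in the combination and 17.1 ± 1.87 in vehicle (SD, n = 3 each; adjusted p = 0.725 and 0.24). SNAI2 (Slug) was too scarce to test, with 6, 0 and 2 counts in the combination, 10 and 0 in radiation, 0 in olaparib library 1 and 2, 0 and 2 in vehicle.

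CDH1 (E-cadherin) stood at 4.04, 3.76 and 2.80 scaled CPM in the combination, 2.93 and 3.12 in radiation, 1.55 in olaparib library 1 and 3.33, 2.41 and 1.92 in vehicle. Combination and vehicle overlapped (log2 change 0.47, SE 0.347, adjusted p = 0.635). EPCAM stood at 1.36, 2.06 and 1.47 in the combination, 0.467 and 1.28 in radiation, 0.814 in olaparib library 1 and 2.23, 2.31 and 1.31 in vehicle, also with overlap between combination and vehicle (log2 change -0.25, SE 0.490, adjusted p = 0.921). Per kilobase, CDH2 stood above CDH1 by a mean ratio of 9.95 in the combination (range 8.14 to 13.0), 11.7 in radiation, 27.4 in olaparib library 1 and 19.0 in vehicle (range 13.7 to 25.0). The ratio itself was not tested, and with median transcript lengths the means were 39.4 in the combination and 75.2 in vehicle.

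CD24 (ENSG00000272398.6), a lipid-anchored surface glycoprotein found on many epithelial and progenitor cells, stood at 4.53, 4.53 and 2.85 scaled CPM in the combination, 4.20 and 2.90 in radiation, 0.972 in olaparib library 1 and 1.72, 0.696 and 0.928 in vehicle. Of these 9, every irradiated library was above every other. These levels rest on 60 to 126 counts in the irradiated libraries and 22 to 44 in the others. CD24 averaged 3.97 ± 0.968 in the combination and 1.12 ± 0.539 in vehicle (SD, n = 3 each), a fold of 3.58 (log2 change 1.84, SE 0.391, adjusted p = 0.00079). Radiation alone, at 3.55 ± 0.921 (SD, n = 2), gave a fold of 3.201 (log2 change 1.68, SE 0.419, adjusted p = 0.0195). Between the combination and radiation the log2 change was 0.16 (SE 0.412, adjusted p = 0.959). The radiation call was lost without radiation library 1, without vehicle library 2 and without vehicle library 3. CD24 has near-identical pseudogene copies among which reads can be split, so its count is uncertain. In the libraries set apart it stood at 4.13 in radiation library 3 and 2.89 and 1.80 in olaparib libraries 2 and 3, so those olaparib libraries were above vehicle. The part of background in the CD24 level was not tested.

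Radiation against vehicle called 3 of the 37 members, CTSK lower and COL8A1 and CD24 higher, beside 1.1% of all genes (0.42% higher and 0.678% lower) and 3.46% of those averaging at least 10 scaled CPM. The median log2 change of the members was 0.00 and that of all genes -0.03. DESeq2 also called COL5A2, LAMC1 and CDH2 lower and gave no adjusted p for COL8A1 and CD24. Because the combination and radiation were each set against the same 3 vehicle libraries, their values share that error. Combination against radiation called 1 of 37, COL8A1, lower, beside 0.568% of all genes (0.426% lower). There, 17 of the 18 members averaging at least 10 scaled CPM had a negative log2 change, which is 94.4%, beside 58.6% of all genes at that level.

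Olaparib against vehicle called none of the 37 members in edgeR, beside 0.0678% of all genes. With a single olaparib library the spread is borrowed from the other groups, which assumes that olaparib libraries vary as the others do. LAMA4 was the only member with an unadjusted p under 0.05, beside 3.34% of all genes, and DESeq2 and limma-voom also called none. CTSK had a log2 change of 0.09 with olaparib (SE 0.0974), COL5A2 0.11 (SE 0.0879), LAMC1 0.00 (SE 0.0931), ITGB1 -0.05 (SE 0.091), CDH2 -0.11 (SE 0.148) and CD24 -0.19 (SE 0.560). The interaction of olaparib and radiation called none of 37 in edgeR, beside 0.2% of all genes, with 7 members at an unadjusted p under 0.05, beside 7.18% of all genes. DESeq2 called COL5A2 (-0.35, adjusted p = 0.0378), and limma-voom called COL8A1 and CTSK (-0.36, adjusted p = 0.0358).

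The 3 libraries set apart showed these genes differently. Of the 22 members under 10 scaled CPM, 15 were higher in all 3 than in any of the 9, and of the 18 others, 10 were lower in all 3 than in any of the 9. How many of all genes did so at these levels was not counted. COL12A1 reached 5.79 in radiation library 3 and 15.3 and 15.6 in olaparib libraries 2 and 3, against a highest value of 2.14 in the 9. COL5A2 stood at 492 in radiation library 3 and 363 and 332 in olaparib libraries 2 and 3, against a lowest value of 564 in the 9. CTSK stood at 192, 186 and 147 in the same 3 libraries, against a lowest value of 203 in the 9, and ITGB1 at 541, 439 and 377, against 616. CDH2 stood at 28.9, 21.5 and 21.1, against a lowest value of 28.99. The summed endothelial markers were 13.5 to 34.0 scaled CPM in these 3 libraries, against 1.79 to 1.85 in the combination and 1.73 to 3.80 in vehicle. No comparison between groups was drawn from them.

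**Figure D5:**
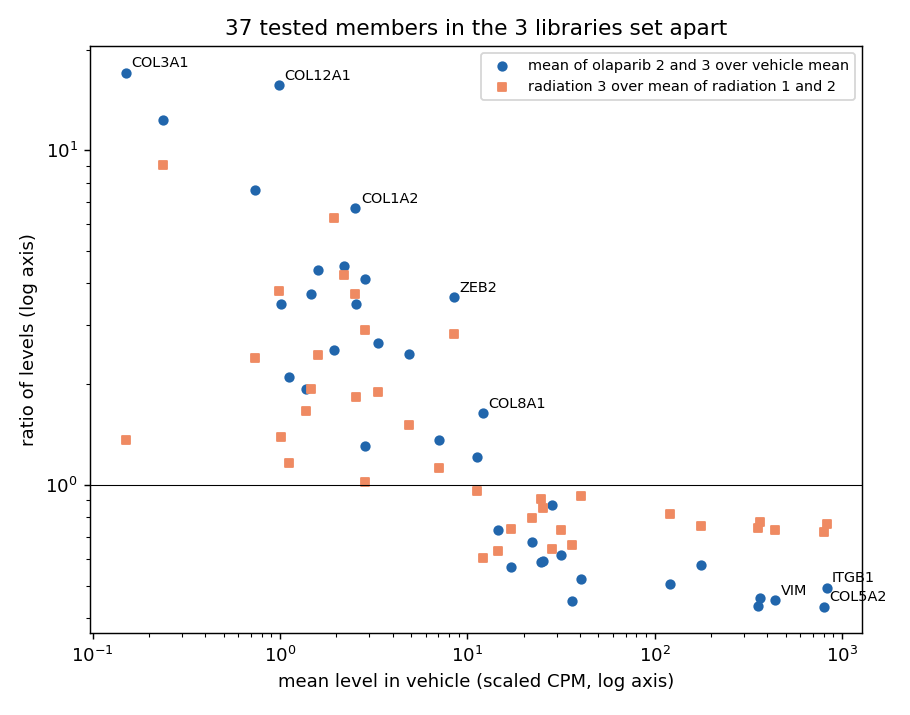
Ratio of levels (log axis) against mean level in vehicle (log axis) for the 37 tested members; circles are the mean of olaparib libraries 2 and 3 over the vehicle mean, squares radiation library 3 over the mean of radiation libraries 1 and 2. Ratios lie mostly above 1 for members under 10 scaled CPM and mostly below 1 for the others.

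Other genes of the same pathways gave calls in both directions in the combination against vehicle. For each list below, the share called over all genes tested was 4.8% (1.53% higher and 3.26% lower). Among genes averaging at least 10 scaled CPM it was 15.5%, with 11.2% lower. With library totals alone as scaling, 2594 of 30967 genes passed. Whether any list departs from these shares was not tested. Of 17 tested basement membrane genes, 3 were higher and 1 lower: NID1 (nidogen 1, which links laminin to type IV collagen; log2 change 0.42, SE 0.0969, adjusted p = 0.0034), AGRN (agrin; 0.36, SE 0.109, adjusted p = 0.0392), LAMA3 (1.30, SE 0.360, adjusted p = 0.017) and, lower, COL4A5 (-0.36, SE 0.105, adjusted p = 0.0261). Scaled by library totals alone, 4 of these genes were higher and none lower. The calls of AGRN, LAMA3 and COL4A5 were each lost on leaving out 4 or 5 of the single libraries in turn, and that of NID1 without combination library 3 or vehicle library 1. Of 27 genes of collagen biosynthesis, which modify and fold collagen chains inside the cell or cleave and cross-link them outside it, none was higher. The 4 lower were PLOD1, PPIB, FKBP10 and FKBP14, with log2 changes of -0.31, -0.32, -0.40 and -0.40. The call of PLOD1 was lost without vehicle library 3, and that of PPIB without that library or without combination library 1 or 3. By library totals alone, 1 of the 27 was higher and none lower.

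Matrix proteases and their inhibitors gave 5 lower calls and none higher of 24, beside 4.8% of all genes called in either direction. CTSS, another lysosomal cathepsin, averaged 64.8 ± 5.82 scaled CPM in the combination and 107 ± 3.98 in vehicle (SD, n = 3 each; log2 change -0.72, SE 0.0822, adjusted p = 3.93e-10). MMP16, a membrane-bound metalloprotease, had a log2 change of -0.67 (SE 0.125, adjusted p = 9.99e-05), ADAM9, a membrane-bound protease, -0.48 (SE 0.0629, adjusted p = 2.23e-08), and CTSB, cathepsin B, -0.47 (SE 0.0867, adjusted p = 8.45e-05). ADAM10 completed the 5 at -0.29 (SE 0.0696, adjusted p = 0.0032). Scaled by library totals alone, 4 were lower and 1 higher. With radiation alone, MMP16, ADAM9 and CTSS were lower, by log2 changes of -0.58, -0.29 and -0.36. Those 3 radiation calls held in 13, 10 and 11 of 19 alternatives, in that order, and each was lost with library totals alone and on leaving out 3 or 4 single libraries in turn.

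Of 26 integrins and matrix receptors, ITGAV and ITGB8, which pair as a receptor that activates latent TGF-beta, were both lower in the combination, ITGAV by a log2 change of -0.42 (SE 0.0632, adjusted p = 9.54e-07) and ITGB8 by -0.42 (SE 0.0809, adjusted p = 0.000176), and the collagen receptor DDR2 was higher (1.31, SE 0.402, adjusted p = 0.0392). ITGB8 was also lower with radiation alone (-0.50, SE 0.0912, adjusted p = 0.00026). The DDR2 call was lost on leaving out any 1 combination library. Under scaling by library totals, 3 receptors were higher and 1 lower. Of 26 genes of the TGF-beta pathway, 3 were higher (TGFBR1, LTBP1 and SKIL) and 2 lower (LTBP4 and INHBA, a subunit of activin, at -0.58, SE 0.0759, adjusted p = 2.73e-08), and with library totals alone 7 were higher and 1 lower. The calls of LTBP1 and SKIL were each lost on leaving out any 1 combination or vehicle library and held in 10 of 19 alternatives, that of LTBP4 was lost on leaving out 5 single libraries in turn, and that of TGFBR1 without combination library 3.

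Of 27 further mesenchymal factors, 4 were lower in the combination and none higher. CCN2 (connective tissue growth factor, a target of YAP and TEAD factors) averaged 187 ± 6.08 scaled CPM in the combination, 198 ± 27.3 in radiation (n = 2) and 328 ± 7 in vehicle (SD, n = 3 for the others). Its log2 change was -0.81 in the combination (SE 0.0710, adjusted p = 1.21e-14) and -0.73 with radiation alone (SE 0.0804, adjusted p = 4.04e-10). CCN1, of the same family, was lower in the combination (-0.32, SE 0.0819, adjusted p = 0.00706) and with radiation (-0.38, SE 0.0920, adjusted p = 0.0158, lost without radiation library 2, vehicle library 2 or vehicle library 3), and also with olaparib alone (-0.59, SE 0.119, adjusted p = 0.00821, 1 olaparib library). HMGA2, a chromatin protein of the mesenchymal state, had log2 changes of -0.56 in the combination (SE 0.0878, adjusted p = 3.12e-06) and -0.61 with radiation (SE 0.0990, adjusted p = 3.1e-05), and TCF4 completed the 4 at -0.46 (SE 0.0937, adjusted p = 0.000441). By library totals alone, 2 were lower and 1 higher. Of 19 genes of epithelial junctions and keratins, DSP (desmoplakin, of desmosomes) was higher in the combination (0.55, SE 0.0776, adjusted p = 2.48e-07) and with radiation (0.48, SE 0.0855, adjusted p = 0.000176), as it was with library totals alone.

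Radiation alone against vehicle was also set against these lists, beside its 1.1% of all genes called. In edgeR it called none of the 17 basement membrane and none of the 27 collagen biosynthesis genes, with 1 and 4 at an unadjusted p under 0.05, and DESeq2 and limma-voom called none in either list. In the TGF-beta pathway, INHBA was lower (log2 change -0.36, SE 0.0849, adjusted p = 0.01). TCF4 was lower (-0.51, SE 0.105, adjusted p = 0.00172), and so was the mucin MUC1 (-1.13, SE 0.285, adjusted p = 0.0208). The call of INHBA was lost without radiation library 2 or vehicle library 2, that of TCF4 without radiation library 1, and that of MUC1 without either radiation library or without vehicle library 1 or 3. ID2, an inhibitor of basic helix-loop-helix factors, averaged 294 ± 25.8 scaled CPM in radiation (n = 2) and 214 ± 5.69 in vehicle (SD, n = 3), and was higher with radiation (0.46, SE 0.0771, adjusted p = 5e-05). It was lower in the combination, at 220 ± 11.2 (SD, n = 3), than with radiation (-0.42, SE 0.0772, adjusted p = 0.000645), as was CTSS (-0.36, SE 0.0910, adjusted p = 0.0367). The CTSS call held in 8 of 19 alternatives and was lost on leaving out 5 single libraries in turn, and that of ID2 was lost without radiation library 1. The interaction term was -0.72 for ID2 (SE 0.123, adjusted p = 0.00048) and 0.65 for CCN1 (SE 0.149, adjusted p = 0.031), with 1 olaparib library. The CCN1 interaction was also lost on leaving out 5 single libraries in turn. Neither interaction passed with all 12 libraries, where that of ID2 was 0.15.

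Markers of other cells were checked beside these changes. The summed fibroblast markers ran from 70.1 to 73.0 scaled CPM in the combination and from 95.9 to 103 in vehicle, and 1 of the 8 tested, PDGFRA, accounted for most of the sum (65.5 ± 1.83 in the combination and 93.4 ± 2.57 in vehicle; SD, n = 3 each). PDGFRA was lower in the combination (log2 change -0.51, SE 0.0821, adjusted p = 4.75e-06). The leukocyte markers summed to 81.7 to 101 in the combination and 81.6 to 98.9 in vehicle, nearly all from CD68, while CD3E, CD14 and LYZ stayed at or under 0.535 in the 9 libraries. The airway and alveolar markers summed to 3.72 to 5.16 in the combination and 3.74 to 4.03 in vehicle.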

How the data were processed

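SBC5 cells under 4 treatments were profiled as stranded total RNA libraries, 3 for each treatment. The deposited values are estimated counts per gene (expected counts), made with kallisto 0.46.1 per the submitters' processing notes, which also name DESeq2; the transcriptome release is not given in the sources used here. The file's 60649 rows became 60605 genes after 44 rows for Y copies of pseudoautosomal genes were added to X, and estimates were rounded. Symbols came from a gene name table (60463 matched).

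Tests used edgeR 4.0.16 in R 4.3.3 (quasi-likelihood, robust, TMM scaling, default count filter), 1 fit over 9 libraries, with adjusted p by Benjamini-Hochberg over 30967 genes and a threshold of 0.05; the 3 libraries of high background were left out and are shown as values, scaled with all 12. Standard errors are the log2 change over the square root of F. DESeq2 1.42.0 and limma 3.58.1 (voom) were alternatives, with other scalings, filters and left-out libraries. Scripts were tested on simulated counts. Lengths are from GENCODE 29 and sequences from RefSeq. The 40 genes, the further lists and the alternatives were chosen with earlier results of these data known; median transcript lengths and the alternative level limits were added after the values were seen. Full values are given for called members and for a list of main genes, others by mean or count. Depth limits calls among scarce genes. Some items are not reported here.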

Additional observations from a re-analysis of the deposited data

Results flagged for a closer look

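In the 3 libraries left out of the tests (radiation library 3 and olaparib libraries 2 and 3), 15 members were above every one of the other 9 libraries in all 3. No such count was made over all genes, so a trait of these members cannot be read from it. The values below are the lowest of the 3, in scaled CPM, and no group was compared with them. Among the collagens, COL1A2 reached at least 7.62, COL3A1 0.531, COL6A3 5.31 and COL12A1 5.79. Among the other matrix proteins and their enzymes, FN1 reached at least 4.49, SPARC 2.30, LAMA4 4.55, TGFBI 1.54, THBS1 7.14, MMP2 2.13 and FBN2 2.18. Among the genes of the epithelial and mesenchymal states, CDH1 reached at least 5.55, EPCAM 4.29, ZEB2 22.5 and SNAI2 1.004. The olfactory receptor sum was 920 to 2098 CPM in the same 3 libraries, against 355 to 501 CPM in the other 9; its part in these levels was not tested.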

How the results depend on the processing

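The combination against vehicle called 8 members. It called 3 scaled by library totals alone, 5 with limma-voom, 0 with all 12 libraries and 3 with all 12 plus a covariate for the summed olfactory receptors. Over all genes these settings called, in that order, 2594 of 30967, 1331 of 30967, 1 of 31858 and 829 of 31858. The cause of these differences was not tested. Under every other setting 7 or 8 were called, and 7 to 8 on leaving out single libraries. The 8 called with DESeq2 were all lower, and it gave no adjusted p for CD24. Radiation against vehicle called 3 members, 0 with all 12 libraries and 1 with the covariate, and 2 to 4 on leaving out single libraries. Combination against radiation called 1 member, 4 with DESeq2, 2 with limma-voom, 0 with all 12 libraries and 0 with the covariate, and 0 to 4 on leaving out single libraries, with 0 without radiation library 1 and 4 without radiation library 2. The interaction called 0 members, 1 without a count filter, 1 with DESeq2 and 2 with limma-voom, and 0 to 1 on leaving out single libraries. Olaparib against vehicle called 0 under every alternative that gave a value; no value exists without its only library. No change of a called member reversed. Deviations of same-numbered libraries from their group means had correlations of -0.098 to 0.021. With 2 or 3 libraries in a group these deviations depend on each other, so the check cannot settle whether the numbers pair the libraries. With the replicate number as a block, the fit called 7 members in the combination and 2 with radiation. Of the values of single members under the alternatives, 3192 kept their side of the threshold, 46 lost it and 22 gained it. Depth limits the scarce members: the median standard error was 0.41 on the log2 scale under 10 scaled CPM. With a limit of 5 or 20 scaled CPM in place of 10, 15 of 20 and 12 of 14 higher members had a negative log2 change in the combination.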
